A study of Homo sapiens with 6 samples.

Results

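Noncoding genes that carry small nucleolar RNAs (snoRNAs) or microRNAs inside them were examined in polyadenylated RNA of the human colon adenocarcinoma line SW480, an established cell line. Members were taken by name: SNHG followed by a number, names that begin with MIR and end in HG, and GAS5, ZFAS1 and DLEU2. This gave 95 of the 28307 gene symbols in the deposited tables, namely 30 snoRNA hosts (the SNHG genes, GAS5 and ZFAS1) and 65 microRNA hosts (the MIR host genes and DLEU2). The study asked what a truncated form of the nuclear RNA surveillance factor ZC3H18 (Z18) does to RNA in human cells. It compared 3 Z18trunc libraries with 3 Clover libraries, all from cells that stably carried a lentiviral construct under the CMV promoter and were kept in puromycin. The construct encoded Z18trunc, a human ZC3H18 without its C-terminal end, or Clover, a fluorescent protein that served as the control. The methods state that the lines were made in biological triplicate, and both groups keep their own ZC3H18 gene.

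A snoRNA host is transcribed by RNA polymerase II, capped, spliced and polyadenylated, and its snoRNAs are trimmed out of the removed introns. C/D box snoRNAs guide methylation of ribosomal RNA, H/ACA box snoRNAs guide pseudouridylation, and the related Cajal body RNAs (SCARNA genes) guide changes of spliceosomal RNA. Many snoRNA hosts begin, like ribosomal protein genes, with a terminal oligopyrimidine tract, and many of their spliced RNAs are removed by nonsense-mediated decay. MicroRNA hosts carry hairpins that the nuclear Drosha enzyme cuts out of the primary transcript and that Dicer then trims. ZC3H18 connects the RNA cap-binding complex with adaptors of the nuclear exosome, the complex that degrades many unstable nuclear RNAs.

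ZC3H18 checked the labels. It stood at 58.4, 51.3 and 61.8 TPM (transcripts per 1000000, a level corrected for gene length and library size) in the Clover libraries and at 752, 739 and 798 TPM in the Z18trunc libraries, a log2 change of 3.72 (SE 0.09, limma adjusted p = 3.2e-05). This value does not tell the construct from the cells' own gene. Aligned fragments ranged from 18226033 to 22463310 per library. All 6 colon epithelial markers had a mean of at least 1 TPM, and the summed level of the 4 immune, 4 fibroblast or 4 endothelial markers was below 2 TPM in every library, with PTPRC, COL3A1, DCN, PECAM1, CDH5 and KDR listed at 0. Over all tested genes the median log2 difference, Z18trunc minus Clover, was 0.11 and became -0.01 after quantile normalization, so changes of single members are also given on that scale where they turn direction.

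The most abundant snoRNA hosts are shown first by the start of their transcripts, since this is where a terminal oligopyrimidine tract would lie. The lines below give 80 bases of hg38 on the strand of the gene, from 40 before to 40 from the start in the deposited tables on, for the 4 snoRNA hosts of highest mean TPM (SNHG29 at chr17:16438947-16439026, plus strand; SNHG5 at chr6:85678694-85678773, minus strand; GAS5 at chr1:173868843-173868922, minus strand; ZFAS1 at chr20:49278138-49278217, plus strand). Capitals mark a C followed by at least 4 further C or T bases that begins within 10 bases of that start.
SNHG29: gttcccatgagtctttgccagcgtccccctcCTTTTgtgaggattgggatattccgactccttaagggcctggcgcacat
SNHG5: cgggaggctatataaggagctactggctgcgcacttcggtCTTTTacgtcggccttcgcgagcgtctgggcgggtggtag
GAS5: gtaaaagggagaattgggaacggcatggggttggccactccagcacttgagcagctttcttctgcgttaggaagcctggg
ZFAS1: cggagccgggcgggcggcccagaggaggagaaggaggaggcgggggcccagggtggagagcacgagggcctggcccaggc
SNHG5 had such a run at its first listed base. In SNHG29 the marked bases began 9 bases before the first listed base and ended before it. They are the end of a longer run of C and T, since only the part nearest the start is marked. GAS5 and ZFAS1 had none that began within 10 bases of the listed start, which says nothing of bases farther away. The GAS5 line does hold a run of that kind farther after the start, which is not marked. The listed span of GAS5 shares neither its start nor its end with RefSeq GRCh38.p14, so its start is less certain. Of the 25 snoRNA hosts with a mean of at least 1 TPM, 13 (52%) had a run, against 6 of 17 microRNA hosts (35.3%), 81.7% of 82 ribosomal protein genes and 32.9% of 28278 genes on primary chromosomes. Runs that began before the listed start were counted too. Only the strand of the gene was searched, and in SNHG32, SNHG19, SNHG6 and SNHG25 the run also began at the first listed base.

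Levels spanned more than 3 orders of magnitude. Of the 30 snoRNA hosts, 9 had a mean of at least 100 TPM over the 6 libraries, 21 of at least 10 TPM, 4 lay between 1 and 10 TPM, 3 (SNHG31, SNHG18 and SNHG14) lay above 0 but below 1 TPM, and 2 (SNHG22 and SNHG27) were listed at 0. The microRNA hosts were lower. Of these 65 genes, 1 (MIR4435-2HG) reached 100 TPM, 5 reached 10 TPM, 12 lay between 1 and 10 TPM, 13 lay above 0 but below 1 TPM, and 35 were listed at 0. SNHG14, which spans the 83 SNORD genes of the imprinted chromosome 15 region in these tables, was among the genes below 1 TPM.

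**Figure D1:**
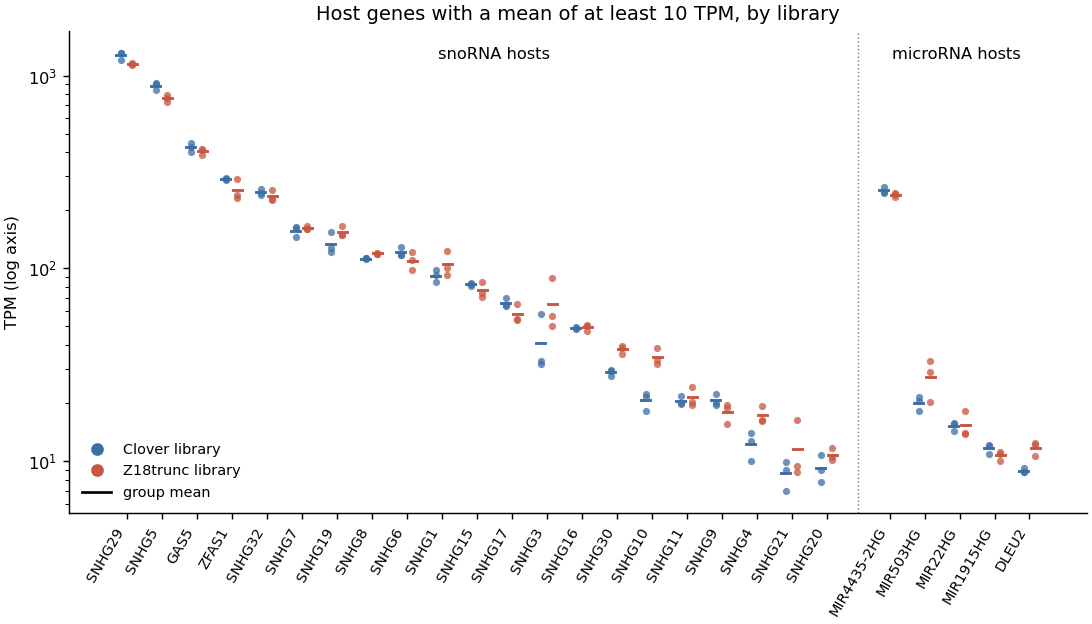
TPM (log axis) of the 26 host genes with a mean of at least 10 TPM. Points are single libraries (blue Clover, red Z18trunc, n = 3 each), horizontal lines are group means, and snoRNA hosts and microRNA hosts are each ordered by mean level; SNHG29 and SNHG5 stand highest, and MIR4435-2HG is the only microRNA host above 100 TPM.

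Taken as sums, the snoRNA hosts held 4117 ± 135 TPM (SD, n = 3) in Clover and 3878 ± 78.8 TPM in Z18trunc, and averaged 0.4% of all TPM. SNHG29 and SNHG5 alone made up 52.4% ± 0.73 (SD, n = 3) of that sum in Clover and 49.2% ± 1.23 in Z18trunc. Together they stood at 2210, 2216 and 2044 TPM in Clover and at 1939, 1860 and 1923 TPM in Z18trunc, without overlap. The remaining 28 snoRNA hosts summed to 1961 ± 40.1 TPM and 1970 ± 77.1 TPM, so the net difference of the sum lay in those 2 genes. Single hosts among the 28 went both ways. The mean of ZFAS1 was 291 TPM in Clover and 254 TPM in Z18trunc, and that of SNHG3 was 41.0 TPM and 65.5 TPM. The microRNA hosts summed to 346 ± 7.12 TPM in Clover and 343 ± 13.5 TPM in Z18trunc.

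In the comparison of Z18trunc with Clover, no host gene passed the adjusted threshold of 0.05. limma was run on log2(TPM + 1) for the 13300 genes with a mean of at least 1 TPM, of which 2 (0.015%) passed, and 42 members were among those tested. At an unadjusted p under 0.05, 7 of the 42 were higher in Z18trunc (25.6% of all tested genes were) and 1 was lower (2.9% of all tested genes were). After quantile normalization, 5 members of each direction had such a p (12.8% of all tested genes were higher and 10.9% lower), and the lower ones were SNHG5, SNHG17, SNHG9, MIR1915HG and MIR9-1HG. Leaving out a library gave 6 to 10 higher, and 0 lower without Clover replicate 1, 2 without Clover replicate 2 and 3 without Z18trunc replicate 3. The share of all tested genes was not counted in these fits. In 8 members all 3 Z18trunc values lay above all 3 Clover values (30.1% of all tested genes) and in 4 all lay below (6.73%). Of the 4 that lay below, 3 had a mean of at least 100 TPM, where 328 of 1692 tested genes lay below. The median log2 change was 0.05 for the 25 tested snoRNA hosts, 0.06 for the 17 tested microRNA hosts and 0.11 for all tested genes, and it was -0.06, -0.09 and -0.01 after quantile normalization.

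**Figure D2:**
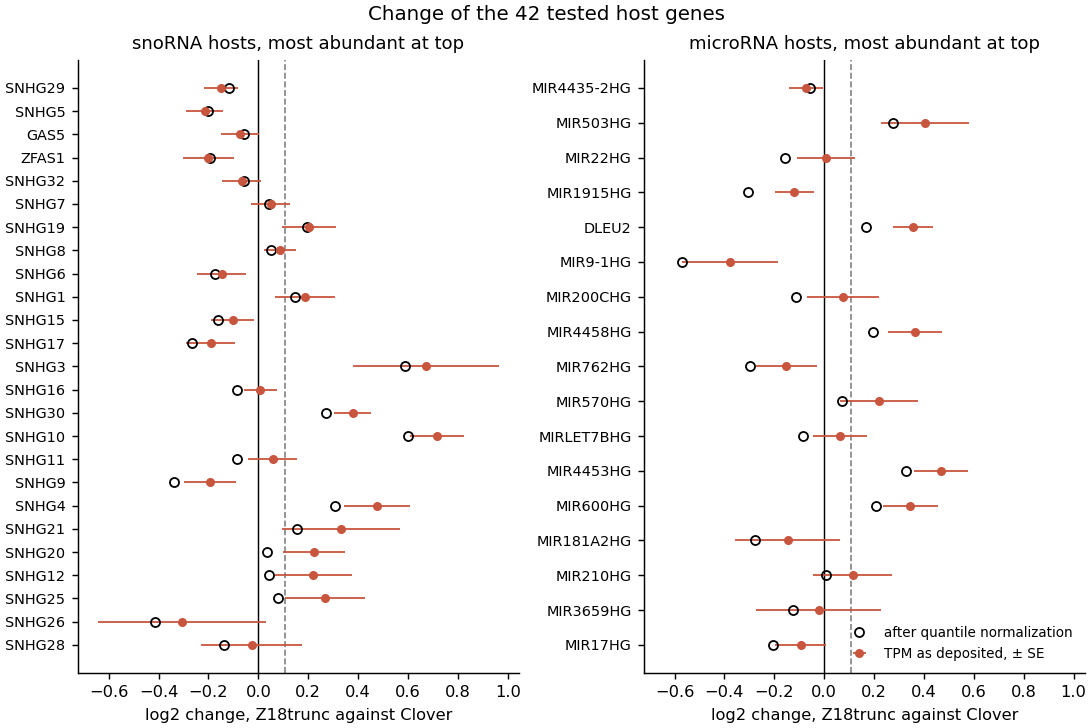
Log2 change in Z18trunc against Clover of the 42 tested host genes, snoRNA hosts at left and microRNA hosts at right, each ordered by mean TPM. Filled points with bars are the change and its SE from limma on log2(TPM + 1), open circles the change after quantile normalization, and the dashed line the median of all 13300 tested genes (0.11); SNHG10 has the highest change of the 42 and MIR9-1HG the lowest.

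SNHG29 carries the C/D box genes SNORD49A, SNORD49B and SNORD65 and was the most abundant host. It stood at 1307, 1303 and 1202 TPM in the Clover libraries and at 1144, 1132 and 1158 TPM in the Z18trunc libraries. The 3 Z18trunc values lay below all Clover values, with a log2 change of -0.15 (SE 0.07, limma adjusted p = 0.21).

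SNHG5, the host of SNORD50A and SNORD50B, was the 1 member lower at an unadjusted p under 0.05. Its level was 903, 913 and 842 TPM in Clover and 795, 729 and 765 TPM in Z18trunc, without overlap. limma gave SNHG5 a log2 change of -0.21 (SE 0.07, adjusted p = 0.12), or -0.20 after quantile normalization. In such bulk RNA, fewer cells that express a gene and less RNA per cell cannot be told apart.

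The other hosts that carry C/D box genes and exceeded 100 TPM overlapped between the groups. GAS5, a growth-arrest transcript with 10 C/D box genes and SNORA103 in its span, stood at 447, 428 and 404 TPM in Clover and 416, 386 and 412 TPM in Z18trunc (log2 change -0.07, SE 0.08). ZFAS1, which lies head to head with the ZNFX1 gene and holds SNORD12, SNORD12B and SNORD12C, stood at 289, 293 and 291 TPM in Clover and 240, 232 and 292 TPM in Z18trunc. The Clover values of ZFAS1 were close together, and Z18trunc replicate 3 lay among them while the other two lay below. SNHG32, the host of SNORD48 and SNORD52 in the major histocompatibility region, stood at 260, 245 and 241 TPM in Clover and 228, 254 and 230 TPM in Z18trunc, summed over 5 rows of which 4 lie on alternate contigs. SNHG19, the host of SNORD60, stood at 128, 154 and 121 TPM in Clover and 149, 148 and 165 TPM in Z18trunc. SNHG6, the host of SNORD87, stood at 129, 117 and 118 TPM in Clover and 98.2, 110 and 121 TPM in Z18trunc. None of these 5 genes had an unadjusted p under 0.05, and their log2 changes ran from -0.20 (ZFAS1) to 0.20 (SNHG19).

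SNHG1, with 8 C/D box genes from SNORD22 to SNORD31, stood at 98.3, 84.6 and 92.7 TPM in Clover and 92.5, 122 and 101 TPM in Z18trunc. SNHG16, with SNORD1A, SNORD1B and SNORD1C, differed least, at 48.7, 49.4 and 49.6 TPM against 47.6, 50.8 and 50.2 TPM, a log2 change of 0.01 that was -0.09 after quantile normalization. SNHG30, which carries SNORD7, was the C/D box host with the smallest unadjusted p. Its 3 Clover values of 29.4, 29.8 and 27.8 TPM lay below its 3 Z18trunc values of 39.6, 38.6 and 35.8 TPM, with a log2 change of 0.38 (SE 0.07, limma adjusted p = 0.077), or 0.27 after quantile normalization.

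SNHG10 is the host of SCARNA13, a Cajal body RNA, and had the smallest unadjusted p of the 42 tested members. It stood at 18.2, 22.4 and 21.6 TPM in Clover and at 32.1, 38.6 and 33.4 TPM in Z18trunc. The groups were well apart, with a log2 change of 0.72 (SE 0.11, limma adjusted p = 0.077). It was 0.60 after quantile normalization, and the change ran from 0.63 to 0.77 when a library was left out. With limma's intensity trend SNHG10 passed the threshold (limma adjusted p = 0.044), as did 60 genes in all. The other 2 Cajal body hosts above 10 TPM overlapped between the groups, SNHG21 (SCARNA15) at 7.04, 9.97 and 9.05 TPM against 8.76, 9.40 and 16.4 TPM, and SNHG20 (SCARNA16) at 10.8, 9.002 and 7.77 TPM against 10.2, 11.8 and 10.5 TPM. The high Z18trunc mean of SNHG21 came from replicate 3 alone.

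Hosts of H/ACA box genes varied in direction. SNHG7 (SNORA17A and SNORA17B) stood at 161, 164 and 145 TPM in Clover and 159, 160 and 166 TPM in Z18trunc. SNHG8 (SNORA24) stood at 113, 111 and 113 TPM in Clover and 119, 121 and 119 TPM in Z18trunc. SNHG8 thus did not overlap, with a log2 change of 0.09 (SE 0.06, limma unadjusted p = 0.21). This change was below the median of all tested genes (0.11) but above that of the genes of at least 100 TPM (-0.03). SNHG15 (SNORA9) stood at 83.9, 80.8 and 83.4 TPM against 74.6, 71.4 and 85.4 TPM. SNHG17, with 4 copies of the SNORA71 family in its span, stood at 70.2, 64.7 and 63.9 TPM against 54.0, 54.9 and 65.4 TPM. In both genes 2 of the 3 Z18trunc libraries lay below all Clover libraries. SNHG17 had a log2 change of -0.19 that was -0.27 after quantile normalization, where its unadjusted p was 0.025.

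SNHG3 (SNORA73A and SNORA73B) was the least even of the abundant hosts. It stood at 33.2, 31.9 and 57.9 TPM in Clover and at 50.5, 89.7 and 56.4 TPM in Z18trunc. Clover replicate 3 lay above 2 of the Z18trunc libraries, and the log2 change of 0.67 had an SE of 0.29 (limma adjusted p = 0.19), and was 0.43 without Z18trunc replicate 2. SNHG3 shares its strand and part of its span with RCC1, a coding gene at a mean of 119 TPM, so that reads could be divided between them. SNHG4 (SNORA74A and SNORA74D) likewise overlaps MATR3, at a mean of 55.3 TPM, on the same strand. It stood at 14.001, 10.1 and 12.7 TPM in Clover and 16.4, 16.2 and 19.4 TPM in Z18trunc, without overlap (log2 change 0.48, SE 0.13, limma adjusted p = 0.090). SNHG20 shares its strand and span with SEC14L1, at a mean of 49.4 TPM.

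The last 2 H/ACA hosts above 10 TPM were SNHG11 and SNHG9. SNHG11 (SNORA71E and SNORA60) stood at 21.7, 19.995 and 19.8 TPM in Clover and 19.7, 24.3 and 20.4 TPM in Z18trunc, and its log2 change of 0.06 became -0.09 after quantile normalization. SNHG9 (SNORA78) stood at 19.6, 22.3 and 20.2 TPM against 19.0, 15.6 and 19.5 TPM. All Z18trunc values of SNHG9 lay below the Clover values, the nearest by a small margin, with a log2 change of -0.19 (limma unadjusted p = 0.11) and -0.34 after quantile normalization. The 4 snoRNA hosts between 1 and 10 TPM, SNHG12, SNHG25, SNHG26 and SNHG28, overlapped between the groups and had log2 changes from -0.31 to 0.27. By kind of nested gene, the median log2 change was -0.07 over 11 hosts of C/D box genes only, 0.09 over 11 hosts of H/ACA box or Cajal body genes only, and 0.07 over the 2 hosts of both kinds, GAS5 and SNHG12. These medians were -0.09, 0.04 and -0.01 after quantile normalization, and the difference between kinds was not tested.

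Abundant and less abundant hosts lay on different sides of 0, as did all genes. For the 9 snoRNA hosts with a mean of at least 100 TPM the median was -0.07, while the 1692 genes of that level had -0.03. The 12 between 10 and 100 TPM had 0.21, and the 6276 genes of that level 0.10. After quantile normalization these medians were -0.06 against -0.02 and 0.09 against -0.02.

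**Figure D3:**
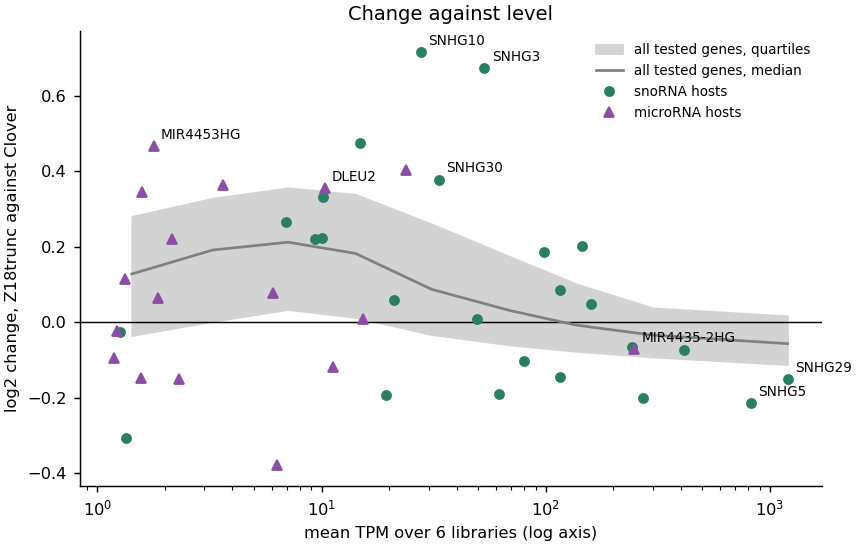
Log2 change in Z18trunc against Clover (limma on log2(TPM + 1)) plotted against mean TPM over the 6 libraries (log axis). Circles are the 25 tested snoRNA hosts and triangles the 17 tested microRNA hosts; the grey line and band are the median and quartiles of all 13300 tested genes in bins of level, whose median goes from 0.21 between 5 and 10 TPM to -0.06 above 500 TPM.

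The microRNA hosts are shown by the mature microRNAs of the hosts described below, taken from the RefSeq microRNA table (GRCh38 coordinates), in which all 17 tested hosts had an entry, 51 mature microRNAs in all. Capitals mark the seed, bases 2 to 8, which pairs with target RNAs. The first 3 are from DLEU2 and MIR503HG and begin with AGCAGC in the seed. The next 3 share 1 seed, although they come from MIR4458HG and MIRLET7BHG on different chromosomes. The last 3 are from MIR4435-2HG, MIR4453HG and MIR600HG and share no seed.
hsa-miR-15a-5p (chr13:50049167-50049188, minus strand): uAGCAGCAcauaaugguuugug
hsa-miR-16-5p (chr13:50049027-50049048, minus strand): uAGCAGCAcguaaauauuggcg
hsa-miR-503-5p (chrX:134546371-134546393, minus strand): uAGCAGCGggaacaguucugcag
hsa-miR-4458 (chr5:8460933-8460951, plus strand): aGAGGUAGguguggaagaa
hsa-let-7a-5p (chr22:46112752-46112773, plus strand): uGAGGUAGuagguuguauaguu
hsa-let-7b-5p (chr22:46113691-46113712, plus strand): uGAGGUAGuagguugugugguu
hsa-miR-4435 (chr2:111321061-111321082, minus strand): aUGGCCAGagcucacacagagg
hsa-miR-4453 (chr4:152536432-152536451, plus strand): gAGCUUGGucuguagcgguu
hsa-miR-600 (chr9:123111561-123111583, minus strand): aCUUACAGacaagagccuugcuc
Over the 51, 7 seeds occurred more than once. These libraries were made from polyadenylated RNA, so the values below are levels of the host transcripts and say nothing of the mature microRNAs.

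MIR4435-2HG, at chr2:111195866-111495161 on the minus strand, stood at 249, 265 and 247 TPM in Clover and 235, 245 and 244 TPM in Z18trunc. All Z18trunc values lay below the Clover values, the nearest by about 2 TPM, with a log2 change of -0.07 (SE 0.07, limma adjusted p = 0.53). This gene has a near-identical copy, CYTOR, on the same chromosome, so its level is uncertain as far as reads were divided between them.

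DLEU2, which lies in the chromosome 13 region often deleted in leukaemia and carries the miR-15a and miR-16 hairpins, was the microRNA host with the smallest unadjusted p. It stood at 8.76, 8.78 and 9.24 TPM in Clover and 12.1, 12.4 and 10.7 TPM in Z18trunc, without overlap. DLEU2 had a log2 change of 0.36 (SE 0.08, limma adjusted p = 0.077), which was 0.17 after quantile normalization, where the unadjusted p was 0.10. DLEU1 and TRIM13 overlap it on the opposite strand, and whether the gene tables used strand is not given in the sources used here.

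MIR503HG, the host of miR-503, stood at 20.6, 18.3 and 21.6 TPM in Clover and 20.3, 28.9 and 33.2 TPM in Z18trunc. One Z18trunc library lay within the Clover range and the other two above it, with a log2 change of 0.40 (SE 0.18, limma unadjusted p = 0.056) that was 0.26 without Z18trunc replicate 3. MIR22HG, the host of miR-22, stood at 15.6, 15.7 and 14.3 TPM against 14.1, 13.8 and 18.3 TPM, and its log2 change of 0.01 was -0.16 after quantile normalization. MIR1915HG stood at 12.04, 10.97 and 12.2 TPM against 11.2, 10.96 and 10.0025 TPM (log2 change -0.12, and -0.31 after quantile normalization, where the limma unadjusted p was 0.0058). MIR22HG and MIR1915HG thus overlapped between the groups.

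Among the 12 microRNA hosts between 1 and 10 TPM, 3 were higher without overlap and at an unadjusted p under 0.05. Of all 5332 tested genes of that level, 1547 were higher at this p and 1675 were higher without overlap. MIR4458HG stood at 3.52, 2.68 and 2.99 TPM in Clover and 4.23, 3.74 and 4.70 TPM in Z18trunc. MIR4453HG stood at 1.51, 1.12 and 1.39 TPM against 2.23, 1.89 and 2.58 TPM. MIR600HG stood at 1.46, 0.97 and 1.40 TPM against 1.94, 1.65 and 2.06 TPM. Their log2 changes were 0.36 (SE 0.11), 0.47 (SE 0.11) and 0.35 (SE 0.11), which understate the change at such low levels, with limma adjusted p = 0.096, 0.079 and 0.11. After quantile normalization they were 0.20, 0.33 and 0.21, and the limma unadjusted p of MIR4458HG was 0.051. The other 9 overlapped between the groups. The lowest log2 change of all 42 members was that of MIR9-1HG, host of the neural miR-9, at -0.38 (9.03, 5.17 and 7.79 TPM in Clover and 5.27, 4.50 and 6.17 TPM in Z18trunc). These 9 also included MIR17HG, which carries the oncogenic miR-17 to miR-92a cluster, at 1.25 ± 0.138 TPM (SD, n = 3) in Clover and 1.11 ± 0.226 TPM in Z18trunc, MIR200CHG, whose miR-200c and miR-141 maintain epithelial character, at 5.91 ± 1.45 and 6.19 ± 0.209 TPM, and MIRLET7BHG at 1.79 ± 0.176 and 1.92 ± 0.355 TPM. The log2 change turned direction after quantile normalization in MIR200CHG (0.08 to -0.11) and MIRLET7BHG (0.06 to -0.09).

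The short genes nested in the hosts have rows of their own in the deposited tables. Of the 121 C/D box genes inside snoRNA hosts, 31 had a mean of at least 1 TPM, as did 12 of 20 H/ACA box genes, 3 of 4 Cajal body genes and 4 of 101 microRNA genes inside microRNA hosts. The highest of each kind were SNORD104 in SNHG25, at a mean of 28.6 TPM, SNORA9 in SNHG15, at 16.2 TPM, SCARNA13 in SNHG10, at 12.7 TPM, and MIR570 in MIR570HG, at 11.7 TPM. In these libraries a read of the short RNA and a read of its unspliced host cannot be told apart.

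A second readout was the fragments that the repeat tables assign to transposable elements (TEs) inside a host, on its strand and outside GENCODE exons. They are called intronic below. Such fragments may come from unspliced host RNA or from other RNA of that strand, and these were not told apart. MIR570HG has no GENCODE exons, so its fragments may include exonic ones. SNHG4 lies inside MATR3 and SNHG20 almost wholly inside SEC14L1 on the same strand, so fragments assigned to these hosts may come from those coding genes. Across 16192 genes with such an element these intronic fragments summed to 18327 ± 1336 per 1000000 aligned fragments (CPM, SD, n = 3) in Clover and 21955 ± 2287 CPM in Z18trunc, from 16892 to 19535 CPM against 19674 to 24247 CPM, without overlap. The snoRNA hosts summed to 29.3, 20.5 and 24.3 CPM in Clover and 33.4, 31.2 and 36.5 CPM in Z18trunc, and the microRNA hosts to 58.6, 61.6 and 52.4 CPM in Clover and 71.1, 69.1 and 93.5 CPM in Z18trunc. Neither pair of sums overlapped, as the sum over all genes did not, but in each class the lack of overlap rested on 1 gene. Without ZFAS1 the snoRNA hosts came to 11.4, 9.25 and 9.22 CPM in Clover and 13.4, 10.8 and 12.1 CPM in Z18trunc, which overlapped. Without MIR4435-2HG the microRNA hosts, at 23.9 ± 2.13 and 28.2 ± 3.09 CPM (SD, n = 3), overlapped too. Both means stayed higher in Z18trunc, for the snoRNA hosts at 9.94 ± 1.22 CPM in Clover and 12.1 ± 1.35 CPM in Z18trunc (SD, n = 3). The TPM sums over the same hosts were 2109 ± 74.3 and 1934 ± 60.6 TPM for the 14 snoRNA hosts with an intronic element, and 284 ± 9.92 and 272 ± 4.98 TPM for the 31 microRNA hosts with one. Of the 9345 genes with at least 30 such counts, edgeR called 14 (0.15%) at an adjusted p under 0.05, and none of the 24 members tested (9 snoRNA hosts and 15 microRNA hosts). At an unadjusted p under 0.05, 4 members were higher (14.5% of all genes were) and 1 was lower (0.332% of all genes were), and 4 were higher without overlap (18.8% of all genes were). Without Z18trunc replicate 3 the higher count was 2, and without Clover replicate 3 or Z18trunc replicate 2 the lower count was 0. The share of all genes was not counted in these fits. DESeq2 with aligned fragments as size factors called 2 of the 24, MIR4435-2HG and ZFAS1 (0.653% of all genes were called), and with its own size factors none (0.417% of all genes). TMM scaling, which sets the median gene to about 0, left 1 member higher (3.36% of all genes) and 1 lower (3.51% of all genes) at that unadjusted p. The median log2 change was 0.44 for the 9 snoRNA hosts, 0.19 for the 15 microRNA hosts and 0.30 for all genes, and 0.14, -0.11 and -0.00 with TMM.

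MIR4435-2HG held the most intronic fragments of any member, 5153 counts over 297 elements. They came to 33.9, 36.2 and 30.9 CPM in Clover and 46.5, 39.7 and 63.1 CPM in Z18trunc. All Z18trunc values lay above the Clover values, and the log2 difference was 0.56 (SE 0.15, adjusted p = 0.067 by edgeR). Without Z18trunc replicate 3 the change was 0.36, without Z18trunc replicate 1 it passed the threshold (0.61, edgeR adjusted p = 0.011), and so it did on counts of uniquely mapped fragments (edgeR adjusted p = 0.046) and at a minimum of 100 counts (edgeR adjusted p = 0.045). With TMM it was 0.25 (edgeR adjusted p = 0.67) and with DESeq2's own size factors also 0.25 (adjusted p = 0.42). The fragments were spread over the long introns. The most abundant single element, an L1MDa element at chr2:111339995-111341802, held 3.82% of them, and LINE elements together 45.9%. The LINE, SINE, LTR and DNA elements each had a higher mean in Z18trunc, LINE elements going from 14.8 ± 1.78 to 23.5 ± 6.25 CPM (SD, n = 3).

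ZFAS1 came next with 2247 counts. They came to 17.98, 11.2 and 15.1 CPM in Clover and 19.9, 20.5 and 24.4 CPM in Z18trunc, without overlap, and differed by a log2 of 0.55 (SE 0.17, adjusted p = 0.12 by edgeR). The change was 0.38 without Clover replicate 2, 0.24 with TMM (edgeR adjusted p = 0.77) and 0.24 with DESeq2's own size factors (adjusted p = 0.58), and it passed with DESeq2 on aligned fragments (adjusted p = 0.040). In contrast to MIR4435-2HG, most of these fragments lay in a run of endogenous retroviral pieces, at chr20:49282371-49287514, with 6 HERVIP10B3-int pieces and an LTR10B1 that held 83.98% of them. The fragments lie on the strand of the host, opposite to that of the 3 pieces with the most counts. The HERVIP10B3-int pieces came to 10.9 ± 2.97 CPM in Clover and 15.9 ± 1.88 CPM in Z18trunc, and LTR10B1 to 1.41 ± 0.0455 and 2.27 ± 0.461 CPM (SD, n = 3).

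DLEU2 had 1066 intronic counts, at 8.41, 8.31 and 5.45 CPM in Clover and 8.24, 9.93 and 11.7 CPM in Z18trunc. The groups overlapped, and the difference on the log2 scale was 0.43 (SE 0.19, adjusted p = 0.27 by edgeR), 0.12 with TMM. SNHG6 (63 counts) and MIR181A2HG (64 counts) had the most extreme changes, 1.25 (SE 0.53) and -1.26 (SE 0.51), and were the other members at an unadjusted p under 0.05. Each library held between 3 and 20 counts of them, so these changes rest on few fragments. SNHG29, whose TPM was lower in Z18trunc, had intronic fragments at 3.43, 1.93 and 2.85 CPM in Clover and 3.12, 2.30 and 2.05 CPM in Z18trunc, which overlapped.

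**Figure D4:**
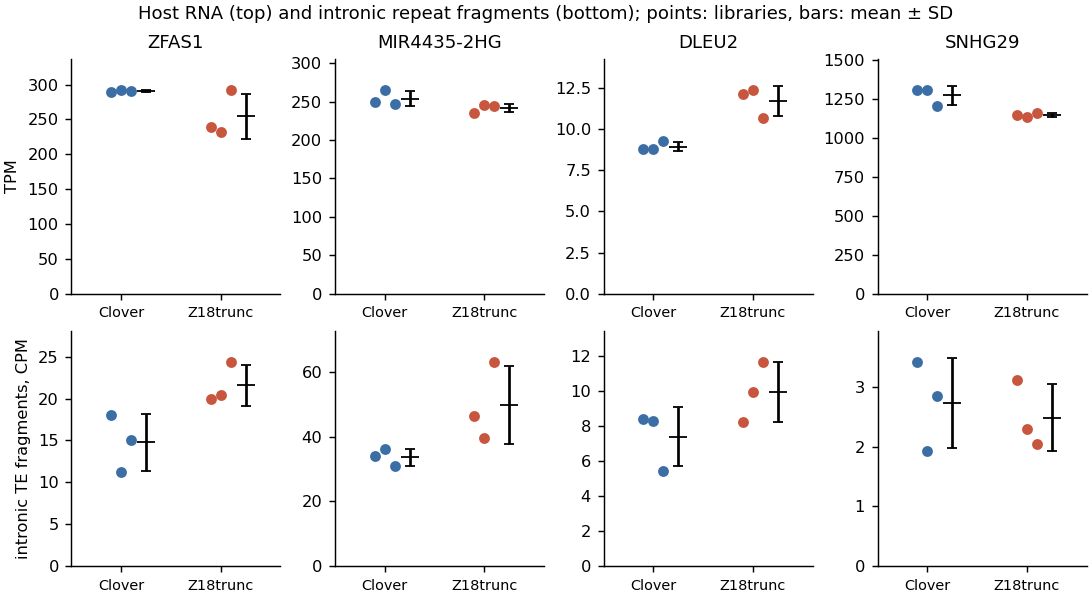
TPM of the host gene (top row) and intronic TE fragments per 1000000 aligned fragments (CPM, bottom row) of ZFAS1, MIR4435-2HG, DLEU2 and SNHG29, with all axes starting at 0. Points are libraries (blue Clover, red Z18trunc, n = 3 each) and bars the mean ± SD; in ZFAS1 and MIR4435-2HG the intronic fragments do not overlap between the groups and are higher in Z18trunc, while the mean TPM is lower.

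Lists of genes related to these hosts or to their short RNAs were read from the same limma fit, in which none of the listed genes passed the adjusted threshold. Of 22 coding genes that also carry snoRNAs, 6 were higher at an unadjusted p under 0.05 and none lower, with a median log2 change of 0.02. They included EIF4A2, a translation initiation helicase (91.2 ± 4.36 TPM in Clover, 126 ± 10.2 TPM in Z18trunc, SD, n = 3; log2 change 0.46), IPO7, a nuclear import receptor (0.54), and WDR43, a ribosome assembly factor (0.38). Of 8 core snoRNP proteins 1 was higher, the H/ACA protein GAR1 (97.6 ± 6.42 to 116 ± 2.82 TPM, SD, n = 3), and of 10 snoRNP assembly factors 3, NUFIP1, NOLC1 and ZNHIT6. In the same way 3 of 10 targets of nonsense-mediated decay were higher, the stress genes GADD45A, ATF3 and DDIT3. Among 10 microRNA processing genes 6 were higher, AGO1 at 0.49, DICER1 at 0.44 and AGO3 at 0.31, and 1 was lower, the Dicer partner TARBP2 (-0.20). These counts stand beside the 25.6% of all tested genes that were higher at this p. After quantile normalization the counts higher were 4 of 22, 1 of 8, 1 of 10, 1 of 10 and 0 of 10 in that order, beside 12.8% of all tested genes. Of those lists, 1 decay target and 2 microRNA processing genes were then lower, beside 10.9% of all tested genes.

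The 79 tested cytosolic ribosomal protein genes, which share the start tract with many snoRNA hosts, had no member higher at an unadjusted p under 0.05 and 5 that were lower (2.9% of all tested genes were), or 1 after quantile normalization (10.9%), and a median log2 change of -0.07 (-0.03 after quantile normalization). RPL15 (log2 change -0.49), RPS15 (-0.19) and RPS9 (-0.19) had the smallest p, and RPS21 and RPL36 were the others. The 9 snoRNA hosts of at least 100 TPM had a median of -0.07 as well, or -0.06 after quantile normalization, without a test of likeness. All 1692 tested genes of that level had -0.03, or -0.02 after quantile normalization. Other noncoding genes had medians of 0.10 (131 LINC genes), 0.10 (244 antisense genes) and 0.16 (34 divergent transcripts), against 0.05 over the 42 host genes. After quantile normalization these medians were -0.07, -0.06 and -0.00, against -0.06 over the host genes.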

How the data were processed

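The authors made polyA-selected, stranded paired-end libraries, trimmed reads (cutadapt 4.6, per the submitters' processing notes), used hg38 and ran SQuIRE, whose version is not given in the sources used here. The authors' gene tables hold TPM, FPKM and coverage (signal) per gene without counts, and the rows of a symbol were summed. The deposited TE tables hold whole-number counts of uniquely mapped fragments per locus and an estimated count in which multiply mapped fragments were shared out. FPKM served as an alternative and coverage was not tested. Gene depth is therefore unknown, and an exact 0 in TPM can be a failed estimate.

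Genes were tested with limma 3.58.1 (R 4.3.3) on log2(TPM + 1) at a mean of at least 1 TPM, with calls at a Benjamini-Hochberg adjusted p of 0.05 over all genes. Estimated counts of TEs inside a gene span, on its strand and outside GENCODE exons, were summed and rounded, and sums of 30 or more went into edgeR 4.0.16 (quasi-likelihood test), with aligned fragments as library size. DESeq2 1.42.0, TMM, quantile normalization, pseudocount 0.1, other filters (0.1 TPM, 100 counts, none), FPKM, uniquely mapped counts, an intensity trend, a replicate block and leaving out each library were alternatives. A permutation of 3 against 3 libraries cannot go below p = 0.1.

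On simulated data for Z18trunc against Clover, limma over 13300 genes called 87% of genes changed by a log2 of 1 and 97% by 2, and edgeR over 9345 genes called 52% and 99%. Of the calls, 9.8% and 5.6% were unchanged genes. The changed genes were drawn from more abundant genes only, for edgeR from those with at least 100 counts. The rates therefore do not cover members of low level or few counts. The largest TPM change of a tested member, 0.72, was below 1, the smallest change simulated. Replicate libraries were further apart than sampling noise (chi-square per degree of freedom 1.70 to 2.14). Ribosomal RNA repeats had 99.6% to 99.8% of counts on their own strand. Of the members, 89 of 95 share a start or end with RefSeq GRCh38.p14.

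Members and gene lists were chosen with earlier results of these data known. Values per library are given for members with a mean of at least 10 TPM or an unadjusted p under 0.05, and of each gene list at most the 3 genes of smallest p are named. RCC1, MATR3, SEC14L1, TARBP2, RPS21, RPL36, the intronic elements, the sums without ZFAS1 or MIR4435-2HG and the low members named with their means were chosen after their values were seen. The list of nonsense-mediated decay factors is not reported here.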

Additional observations from a re-analysis of the deposited data

How the results depend on the processing

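The direction of ZC3H18 and its call held under all alternatives, with log2 changes from 3.64 to 3.78 when a library was left out. The number of members past the adjusted threshold in TPM was 0 in all fits except the intensity trend, which called 1. In intronic counts it was 0, and 2 higher with DESeq2 on aligned fragments, 1 with at least 100 counts, 1 with uniquely mapped counts, and 0 to 1 when a library was left out. At an unadjusted p, the members lower in TPM numbered 1 (2.9% of all tested genes), and 5 after quantile normalization (10.9%). They numbered 7 with FPKM, 3 with the trend, 2 at a filter of 0.1 TPM, 3 with no filter and 0 to 3 when a library was left out. The members higher numbered 6 to 10 when a library was left out. The share of all tested genes was counted only for the main fit and quantile normalization. The median log2 change of all tested genes was 0.11 in the main fit and 0.04 with FPKM. Intronic members higher numbered 4, and 1 with TMM, 0 with DESeq2's own size factors and 2 to 4 when a library was left out. Intronic members lower numbered 1, and 0 with at least 100 counts, 0 with uniquely mapped counts and 0 to 1 when a library was left out. Of all genes, 14.5% were higher and 0.332% lower in the main intronic fit, and 3.36% and 3.51% with TMM. This share was not counted for the other intronic fits. The median of the microRNA hosts moved from 0.0646 to -0.0852 with quantile normalization and ran from -0.00803 to 0.0999 when a library was left out. Among the 29 members followed through all alternatives, the log2 changes that turned direction were small. With quantile normalization they were MIR22HG (-0.157), SNHG11 (-0.0851) and SNHG16 (-0.0875), besides MIR200CHG and MIRLET7BHG among the other tested members, and with FPKM MIR22HG (-0.0512), SNHG11 (-0.00623), SNHG16 (-0.0573) and SNHG7 (-0.0181). Leaving out a library gave ranges of -0.114 to 0.0758 for MIR22HG, -0.0311 to 0.114 for SNHG11, -0.0105 to 0.0355 for SNHG16, -0.00684 to 0.0833 for SNHG7 and -0.341 to 0.0605 for the intronic counts of SNHG29. The cause of these differences was not tested. The replicate numbers in the sample titles did not pair the samples, since deviations of same-numbered libraries correlated at -0.04, 0.02 and -0.04, and with a replicate block 0 members passed in either readout and 8 were higher and 1 lower in TPM at an unadjusted p. In that fit, limma called 1 gene and edgeR 0 of 9345. Depth limits the intronic values of members with few counts.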
